A study of Homo sapiens with 48 samples.

Results

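The genes described here are the numbered zinc finger genes of the chromosome 19 cluster at 19q13.41. They were taken by position and name: protein-coding genes on chromosome 19 that start at or after position 52000000 and before 55000000, with a symbol made of ZNF and a number. This gave 33 genes of the 36843 in the deposited count table (build hg38), and no measured value was used to choose them. They lie in 1 stretch of 1567.51 kb between ZNF614 and ZNF331, with starts from 52012765 (ZNF614) to 53519527 (ZNF331). The nearest genes of the same naming outside the window were ZNF615, which starts at 51991332, and ZNF628, which starts at 55476617.

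The study examined ZNF274 in 3 established human lines of pancreatic ductal adenocarcinoma by RNA-seq (30 libraries, 10 groups of 3) and by CUT&RUN, an antibody-guided cleavage of chromatin. ASPC1 and CFPAC1 each gave 4 RNA-seq groups: transfection with an siRNA against ZNF274 (siZNF274), transfection with a control siRNA (siCTRL), azacitidine at 5 µM (AZA, which blocks DNA methyltransferases) and the solvent DMSO alone. Panc3.27 gave 2 groups: cells with a vector overexpressing ZNF274 (ZNF274_OE) and cells with an empty vector. CUT&RUN for H3K9me3 used ASPC1 with a ZNF274 hairpin (shZNF274) or a control hairpin (shCTRL), both kept in 1 µg/ml doxycycline for 9 days. The sources used here give neither the siRNA sequences, nor the promoter of the overexpression vector, nor whether the hairpin lines are clones.

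Most genes of this cluster encode proteins with a KRAB domain and an array of C2H2 zinc fingers. The fingers bind DNA, largely in transposable elements, and the KRAB domain binds TRIM28, which brings the methyltransferase SETDB1 to deposit H3K9me3, a mark of silent heterochromatin. The zinc finger genes themselves carry H3K9me3 over their bodies, mainly over the exons that encode the fingers, and ZNF274, itself of the KRAB family, is known to bind these exons and to recruit SETDB1 there. Among the genes named below, ZNF808 is needed for formation of the human pancreas, ZNF331 is an imprinted gene, and ZNF677 has been described as a tumour suppressor silenced by DNA methylation. The individual targets of most other members are little known.

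The promoters printed here introduce the main contrast of the cluster in ASPC1. RefSeq windows of 300 bases (250 before the gene's start and 50 after it, build GRCh38.p14) were matched by symbol for 27 of the 33 genes, and the other 6 are ZNF480, ZNF610, ZNF600, ZNF28, ZNF888 and ZNF665. The first pair below, ZNF528 (chr19:52397599-52397898, plus strand) and ZNF813 (chr19:53467483-53467782, plus strand), lay wholly under H3K9me3 peaks of ASPC1 and had almost no counts in that line. The second pair, ZNF616 (chr19:52139889-52140188, minus strand) and ZNF468 (chr19:52857570-52857869, minus strand), lay outside the peaks and were expressed. Each is written from 5′ to 3′ on the gene's strand, and the capitals mark the dinucleotide CG, the site of DNA methylation in these cells.
ZNF528: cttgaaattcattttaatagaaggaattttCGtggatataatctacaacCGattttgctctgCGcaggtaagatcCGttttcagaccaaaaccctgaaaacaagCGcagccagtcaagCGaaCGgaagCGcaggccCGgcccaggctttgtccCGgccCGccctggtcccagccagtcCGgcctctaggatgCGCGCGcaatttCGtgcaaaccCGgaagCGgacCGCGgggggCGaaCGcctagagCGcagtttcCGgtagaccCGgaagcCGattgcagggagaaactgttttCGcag
ZNF813: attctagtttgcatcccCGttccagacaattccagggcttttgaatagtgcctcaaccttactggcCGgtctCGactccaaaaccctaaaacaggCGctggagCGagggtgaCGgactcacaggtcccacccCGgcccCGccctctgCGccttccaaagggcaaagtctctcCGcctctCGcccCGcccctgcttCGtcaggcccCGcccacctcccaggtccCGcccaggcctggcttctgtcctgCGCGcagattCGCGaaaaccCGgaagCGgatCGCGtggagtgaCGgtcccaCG
ZNF616: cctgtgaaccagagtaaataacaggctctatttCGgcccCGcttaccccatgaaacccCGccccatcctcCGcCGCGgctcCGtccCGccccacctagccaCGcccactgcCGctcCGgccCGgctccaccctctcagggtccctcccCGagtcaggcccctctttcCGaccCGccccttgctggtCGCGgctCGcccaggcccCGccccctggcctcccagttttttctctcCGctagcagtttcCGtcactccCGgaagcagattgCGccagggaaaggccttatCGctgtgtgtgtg
ZNF468: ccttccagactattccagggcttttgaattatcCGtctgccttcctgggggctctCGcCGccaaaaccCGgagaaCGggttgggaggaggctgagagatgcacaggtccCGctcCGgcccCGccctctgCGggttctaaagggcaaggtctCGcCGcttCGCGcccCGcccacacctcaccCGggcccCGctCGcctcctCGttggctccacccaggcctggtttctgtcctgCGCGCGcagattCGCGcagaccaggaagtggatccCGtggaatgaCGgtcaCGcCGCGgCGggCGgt
The 4 hold 27, 25, 24 and 30 CG sites in the order printed. The median was 25 over the 27 members with a window and 22 over the 15172 protein-coding promoters of the same length matched to counted genes. Of those 15172, 98.1% hold at least 1. Among the members, the 10 windows under a peak held a median of 20.5 CG sites and the 17 outside held 26. DNA methylation itself was not measured in the data used here.

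Library totals ran from 31415743 to 43383141 counts. Levels are given as CPM, counts scaled to the size of the library with TMM factors, either within a line or, where lines are set side by side, over all 30 libraries, and a count level also depends on transcript length, so no order of expression between genes is read from them. The siZNF274 label did not go with less ZNF274 mRNA: ZNF274 had 16.6, 19.2 and 22.4 CPM in ASPC1 siZNF274, against 15.8, 16.3 and 20.6 CPM in ASPC1 siCTRL (log2 fold change 0.15 ± 0.11 SE, edgeR adjusted p = 0.305). In CFPAC1, ZNF274 had 32.6, 34.4 and 31.5 CPM in the libraries labelled siZNF274, against 33.5, 34.0 and 35.7 CPM in siCTRL (log2 fold change -0.07 ± 0.06 SE, edgeR adjusted p = 0.423). Both pairs of groups overlapped, so these directions belong to the labels and not to a measured loss of the mRNA, and protein was not measured in the files used here. In Panc3.27, ZNF274 had 133, 135 and 139 CPM in ZNF274_OE, against 47.4, 50.4 and 49.4 CPM in vector (log2 fold change 1.47 ± 0.05 SE, edgeR adjusted p = 4.17e-11). The design text describes Panc3.27 as low in its own ZNF274, but on the common scale its vector libraries had 44.9, 46.9 and 46.8 CPM, above ASPC1 DMSO at 15.2, 12.9 and 15.05 CPM and CFPAC1 DMSO at 27.7, 27.5 and 28.7 CPM. All lines carried epithelial markers, whose 6 genes summed to 4186 to 15046 CPM in a library, while 4 leukocyte markers summed to 0.793 to 5.31 CPM and 4 acinar markers to at most 0.938 CPM. The fibroblast list summed to 52.9 to 163 CPM and the endothelial list to 0.400 to 57.8 CPM, and their part in the results below was not tested. The fibroblast sums came mainly from COL1A1 (up to 157 CPM in a library) and LUM (up to 144 CPM). COL1A2 reached at most 4.01 CPM, PDGFRB 0.733 CPM and DCN 0.373 CPM.

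In ASPC1, 12 of the 33 genes were close to silent and the other 21 were clearly expressed, with nothing between. In the DMSO libraries the highest of the 12 (ZNF528) averaged 0.0733 CPM and the lowest of the 21 (ZNF836) averaged 2.54 CPM. The 12 are ZNF610, ZNF880, ZNF528, ZNF534, ZNF578, ZNF415, ZNF347, ZNF665, ZNF677, ZNF525, ZNF813 and ZNF331. The division at 1 CPM was chosen after the levels had been seen. In CFPAC1 DMSO only ZNF534, ZNF578 and ZNF677 were under it, and in Panc3.27 vector 7 were: those 3 with ZNF610, ZNF415, ZNF347 and ZNF665. All 3 genes under it in CFPAC1 and all 7 in Panc3.27 were also among the 12 of ASPC1.

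**Figure D1:**
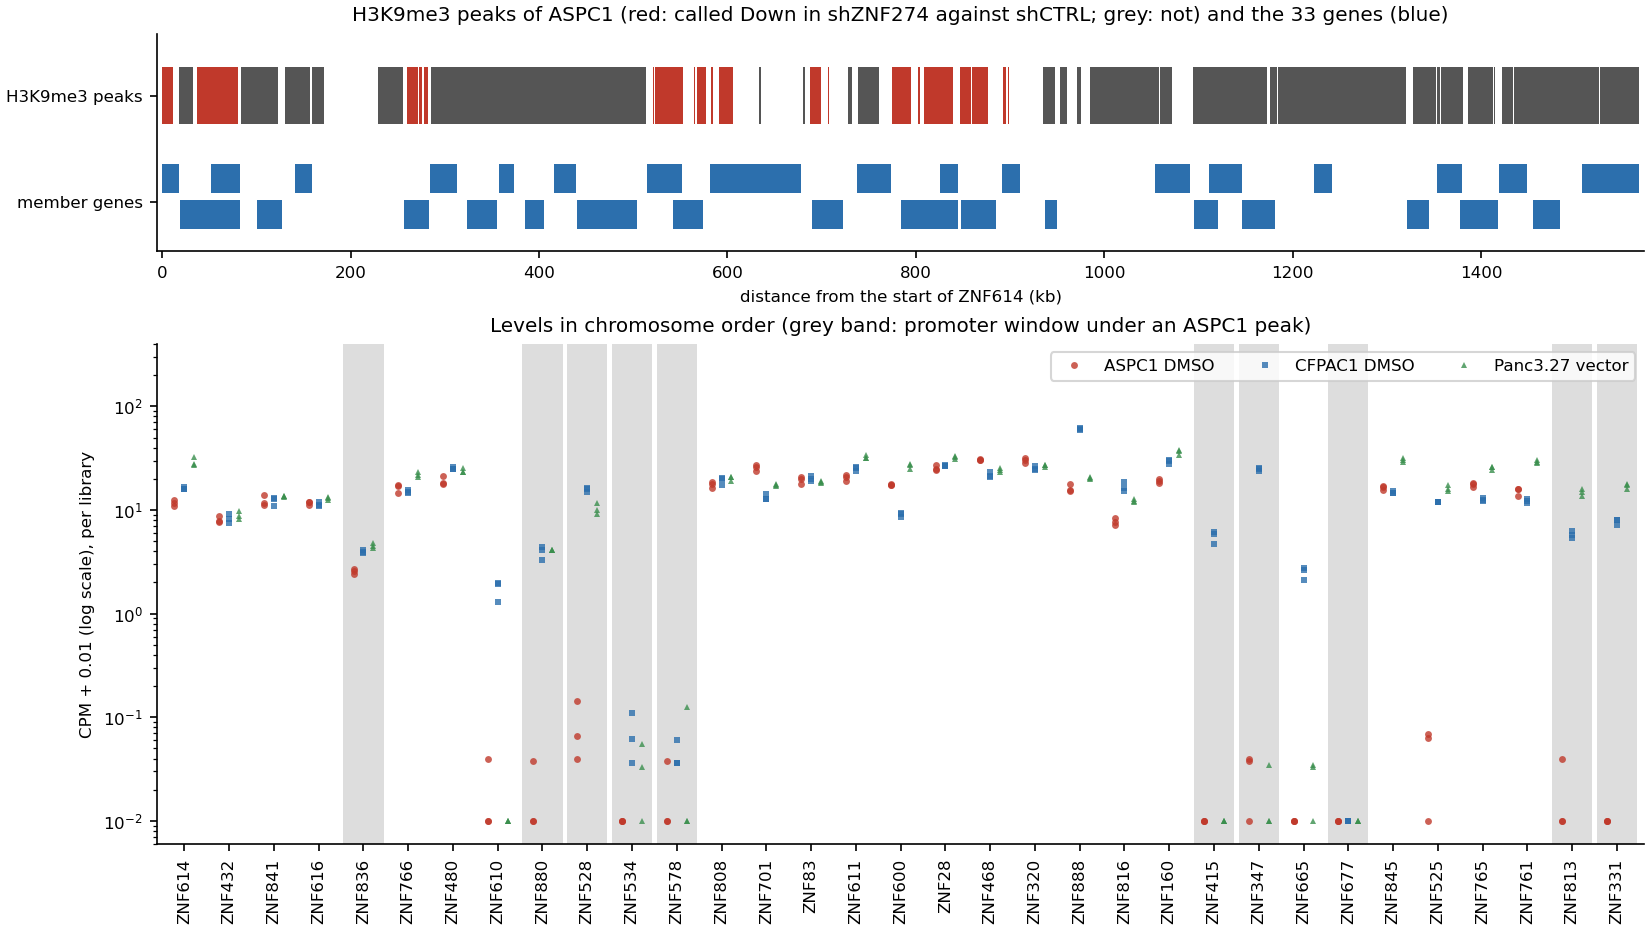
Top, the H3K9me3 peaks of the ASPC1 list (red, called Down in shZNF274 against shCTRL by the authors; grey, not) above the 33 gene bodies (blue), by distance in kb from the start of ZNF614. Bottom, CPM plus 0.01 on a log scale in each of 3 libraries of ASPC1 DMSO, CFPAC1 DMSO and Panc3.27 vector, with genes in chromosome order and a grey band where the promoter window lies under a peak. The 12 genes near 0 in ASPC1 DMSO include 2 long runs, ZNF610 to ZNF578 and ZNF415 to ZNF677, and 9 of the 10 grey bands are over them.

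Raw counts show how deep this difference between lines was. ZNF415 had 0, 0 and 0 counts in ASPC1 DMSO, against 236, 234 and 178 counts in CFPAC1 DMSO, at least 198-fold lower in ASPC1 when a floor of 3 counts over the group stands in for 0. ZNF331, the imprinted gene, had 0, 0 and 0 counts in ASPC1 DMSO, against 275, 318 and 307 counts in CFPAC1 DMSO and 720, 753 and 693 counts in Panc3.27 vector, at least 275-fold and 606-fold lower in ASPC1. ZNF347 had 0, 1 and 1 counts in ASPC1 DMSO, against 906, 995 and 981 counts in CFPAC1 DMSO, a ratio of CFPAC1 over ASPC1 of 1320 with an exact 95% interval of 365 to 10909 that covers counting error only. No ASPC1 library approached a CFPAC1 library for these 3 genes. ZNF347 was also near 0 in Panc3.27 vector, with 1, 0 and 0 counts. ZNF528 had 5, 1 and 2 counts in ASPC1 DMSO, against 633, 641 and 572 counts in CFPAC1 DMSO and 467, 440 and 396 counts in Panc3.27 vector, so it was low in ASPC1 alone of the 3 lines. ZNF677 had 0 counts in the 9 libraries of ASPC1 DMSO, CFPAC1 DMSO and Panc3.27 vector.

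Tested over all genes, 6 of 30 tested members were higher and 16 lower in ASPC1 DMSO than in CFPAC1 DMSO, against 36.3% higher and 41% lower (77.4% in either direction) of all tested genes. The 16 include 9 of the near-silent genes, which passed the filter on low counts only through CFPAC1, and of the 21 expressed in ASPC1, 6 were higher and 7 lower. Among the expressed genes, ZNF888 had 17.8, 15.4 and 15.2 CPM in ASPC1 DMSO, against 60.4, 62.4 and 58.8 CPM in CFPAC1 DMSO (log2 fold change -1.89 ± 0.06 SE, edgeR adjusted p = 2.82e-20). ZNF816 had 7.60, 8.41 and 7.13 CPM in ASPC1 DMSO, against 18.5, 16.5 and 15.4 CPM in CFPAC1 DMSO (log2 fold change -1.11 ± 0.09 SE, edgeR adjusted p = 6.58e-12). ZNF600 and ZNF701 were the most raised of the 6 higher genes: ZNF600 had 17.4, 17.8 and 17.5 CPM in ASPC1 DMSO, against 9.05, 8.60 and 9.36 CPM in CFPAC1 DMSO (log2 fold change 0.98 ± 0.08 SE, edgeR adjusted p = 8.9e-12). None of these 3 genes had overlapping libraries. ZNF808, the gene needed for the pancreas, was not called between the lines, with 18.6, 17.9 and 16.4 CPM in ASPC1 DMSO, against 20.4, 20.1 and 17.3 CPM in CFPAC1 DMSO. The genes with most counts, which also follow transcript length, were ZNF468, ZNF320 and ZNF701 in ASPC1 DMSO (means 30.6, 30.3 and 25.7 CPM), ZNF888, ZNF160 and ZNF28 in CFPAC1 DMSO (60.5, 29.3 and 26.9 CPM), and ZNF160, ZNF611 and ZNF28 in Panc3.27 vector (36.4, 32.8 and 32.1 CPM).

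H3K9me3 covered most of the cluster in ASPC1. Peaks lay over 74.4% of the stretch, and 29 of 33 gene bodies (87.9%) had at least 50% of their length under a peak, against 3.66% of all 19955 protein-coding genes. The share was 71.4% of the 213 zinc finger genes of the same naming elsewhere on chromosome 19, 30.2% of the 262 on other chromosomes and 9.80% of the 51 other protein-coding genes of the same window. Cover reached 100% at ZNF610, ZNF880, ZNF528, ZNF534, ZNF578, ZNF415, ZNF347, ZNF677 and ZNF813. It was lowest at ZNF83 (20.1%), ZNF888 (24.6%), ZNF611 (33.7%) and ZNF160 (45.7%), and no member was free of peaks.

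Heavy cover did not by itself mark a silent gene. The 12 near-silent genes had 91.7% to 100% of their bodies under peaks, while the 21 expressed genes spread from 20.1% to 96.4%, with a median of 72.4%. ZNF480 was 96.4% covered and had a mean of 19.1 CPM in ASPC1 DMSO, and ZNF841 was 92.0% covered with a mean of 12.2 CPM. Among the 27 members with a promoter window, cover of the body also set the near-silent genes apart, with at least 96.1% at the near-silent and at most 92.0% at the expressed ones. Of the 10 members whose window touched a peak, 9 were under 1 CPM in ASPC1 DMSO, and of the 17 whose window did not, 1 was. The exception among the 10 is ZNF836, with 259 of its 300 bases under a peak and a mean of 2.54 CPM in ASPC1 DMSO. It averaged 3.97 CPM in CFPAC1 DMSO and 4.53 CPM in Panc3.27 vector. Of the 21 genes expressed in ASPC1 it had the lowest mean in every line, so its low rank is not particular to ASPC1. The exception among the 17 is ZNF525, with a mean of 0.0376 CPM although its body was 96.1% covered. Over all protein-coding genes with a window, 85.7% of 512 with a promoter under a peak were under 1 CPM in ASPC1, against 36.8% of 14660 without. The same 10 members, grouped by the peaks of ASPC1, held 3 genes under 1 CPM in CFPAC1 and 5 in Panc3.27, whose own H3K9me3 was not measured here. Of the 512 genes with a promoter under an ASPC1 peak, 68.55% were under 1 CPM in CFPAC1 and 73.05% in Panc3.27. The shares of the 14660 without were 31.94% and 32.03%. These are descriptions with no test, and peaks came from hairpin cells under doxycycline while RNA came from other treatments of the line. Of the 27 genes, 8 have several listed windows, and in none of them did the windows differ in being under a peak.

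In the peak list, the authors' own call for shZNF274 against shCTRL was Down for 23 of the 52 peaks that touch the stretch and Up for 0, against 0.64% Down and 0.383% Up of the 63916 peaks they tested in the whole list. These 23 are 5.62% of all peaks the authors called Down. All 23 end at or before position 52911783, so they lie in the proximal part between ZNF614 and ZNF888, and 12 members overlap at least 1: ZNF614, ZNF432, ZNF841, ZNF766, ZNF808, ZNF701, ZNF83, ZNF611, ZNF28, ZNF468, ZNF320 and ZNF888. The widest peak of the stretch, 228 kb over ZNF480, ZNF610, ZNF880, ZNF528, ZNF534 and ZNF578, was not called changed. Peaks listed for shZNF274 alone numbered 0, for shCTRL alone 17 (32.7%, against 13.7% of the whole list of 63955), and 35 were listed for both. Of the 17, 14 are among the 23 called Down, so these counts are not independent. ZNF888 had 0% of its body under peaks listed for shZNF274, against 24.6% under those listed for shCTRL, and ZNF320 had 40.3% under those for shZNF274, against 71.8% for shCTRL. At 50% cover, 26 members passed with peaks listed for shZNF274, against 29 with those for shCTRL. The list carries no value per sample, so no test across replicates could be run here.

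In ASPC1, the cluster was mostly higher in the libraries labelled siZNF274 than in siCTRL. Of the 22 members that passed the filter on low counts, 15 rose and 0 fell, against 21.5% higher and 24.2% lower of all 16186 tested genes. The filter removed 11 of the 12 near-silent genes, so the count speaks of the expressed ones and ZNF528, which itself passed only through the groups where it was high. Over the 21 expressed members alone, 14 rose and 0 fell, with a median of 0.27. With ZNF528 the median log2 fold change was 0.28 over the members and -0.00 over all tested genes. All 15 had 3 siZNF274 libraries above 3 siCTRL libraries. At an unadjusted p under 0.05 edgeR gave 0 lower members, and DESeq2 also gave 0. In bulk RNA, a change in the number of expressing cells and a change in RNA per cell cannot be told apart. The sum over the 6 epithelial markers also moved, with 6815 to 7522 CPM in ASPC1 siZNF274, against 9673 to 10953 CPM in siCTRL. The fibroblast list summed to 135 to 146 CPM in siZNF274, against 117 to 128 CPM in siCTRL, the 3 endothelial markers to 1.05 to 1.34 CPM, against 0.521 to 0.884 CPM, and the leukocyte markers to 0.990 to 1.27 CPM, against 0.819 to 0.954 CPM. The part of these markers in the result was not tested.

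ZNF528, near-silent in this line, had 19, 25 and 30 counts in ASPC1 siZNF274, against 3, 1 and 4 counts in siCTRL, a ratio of 9.15 with an exact 95% interval of 4.41 to 22 for counting error. Its siZNF274 libraries were above all siCTRL libraries, but it passed the filter through them, so no test is given for it in this line. On the scale common to all libraries it stayed at 0.534, 0.832 and 0.869 CPM in ASPC1 siZNF274, while CFPAC1 siCTRL had 15.7, 16.5 and 16.0 CPM. The next largest changes came from a run of neighbours at the proximal end. ZNF836 had 3.77, 2.84 and 2.90 CPM in siZNF274, against 1.91, 1.31 and 1.05 CPM in siCTRL (log2 fold change 1.15 ± 0.20 SE, edgeR adjusted p = 0.000212). ZNF432 had 13.3, 14.6 and 14.0 CPM in siZNF274, against 6.78, 6.34 and 7.89 CPM in siCTRL (log2 fold change 1.00 ± 0.09 SE, edgeR adjusted p = 4.48e-07). All libraries of siZNF274 were above all of siCTRL for both genes. ZNF616 had 19.05, 16.4 and 17.4 CPM in siZNF274, against 11.8, 8.87 and 8.91 CPM in siCTRL (log2 fold change 0.84 ± 0.10 SE, edgeR adjusted p = 5.51e-06). ZNF841 had 20.4, 20.04 and 21.0 CPM in siZNF274, against 13.2, 11.6 and 11.007 CPM in siCTRL (log2 fold change 0.78 ± 0.09 SE, edgeR adjusted p = 4.28e-06). ZNF432 and ZNF841 overlap on the same strand in the annotation, and how bases shared by both genes were counted is not known from the sources, so their values may not be independent. The other 10 called genes were ZNF614, ZNF320, ZNF480, ZNF83, ZNF765, ZNF160, ZNF611, ZNF701, ZNF761 and ZNF28, with log2 fold changes from 0.20 (ZNF28) to 0.56 (ZNF614). ZNF468 and ZNF888 were not called, and ZNF468 had 31.2, 30.3 and 28.5 CPM in siZNF274, against 31.7, 31.1 and 30.8 CPM in siCTRL.

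The siCTRL libraries of ASPC1 were also set against DMSO. Of 22 tested members, ZNF836, ZNF765, ZNF480 and ZNF600 were lower in siCTRL than in DMSO and 0 were higher, against 14.2% lower and 15.9% higher of all tested genes. The 4 lower are a share near that background, and with only these 2 groups fitted, or without siCTRL replicate 2, siCTRL replicate 3 or DMSO replicate 1, they were 2; at an unadjusted p under 0.05, edgeR also gave 0 higher, and so did DESeq2. ZNF836 had 1.91, 1.31 and 1.05 CPM in siCTRL, against 2.53, 2.28 and 2.45 CPM in DMSO (log2 fold change -0.76 ± 0.20 SE, edgeR adjusted p = 0.0101). ZNF480 had 16.7, 14.3 and 14.1 CPM in siCTRL, against 20.2, 17.1 and 17.4 CPM in DMSO (log2 fold change -0.28 ± 0.09 SE, edgeR adjusted p = 0.0285), and its 18.9, 22.8 and 20.1 CPM in siZNF274 overlap the DMSO range. ZNF765 had 13.8, 13.7 and 13.4 CPM in siCTRL, against 16.95, 15.7 and 17.3 CPM in DMSO (log2 fold change -0.29 ± 0.07 SE, edgeR adjusted p = 0.00699). ZNF600 had 15.3, 13.3 and 14.1 CPM in siCTRL, against 16.6, 16.98 and 16.6 CPM in DMSO (log2 fold change -0.23 ± 0.07 SE, edgeR adjusted p = 0.0258). The comparison of siZNF274 with siCTRL shares its siCTRL libraries with this one. ZNF432, ZNF841, ZNF616 and ZNF320 were not called between siCTRL and DMSO.

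**Figure D2:**
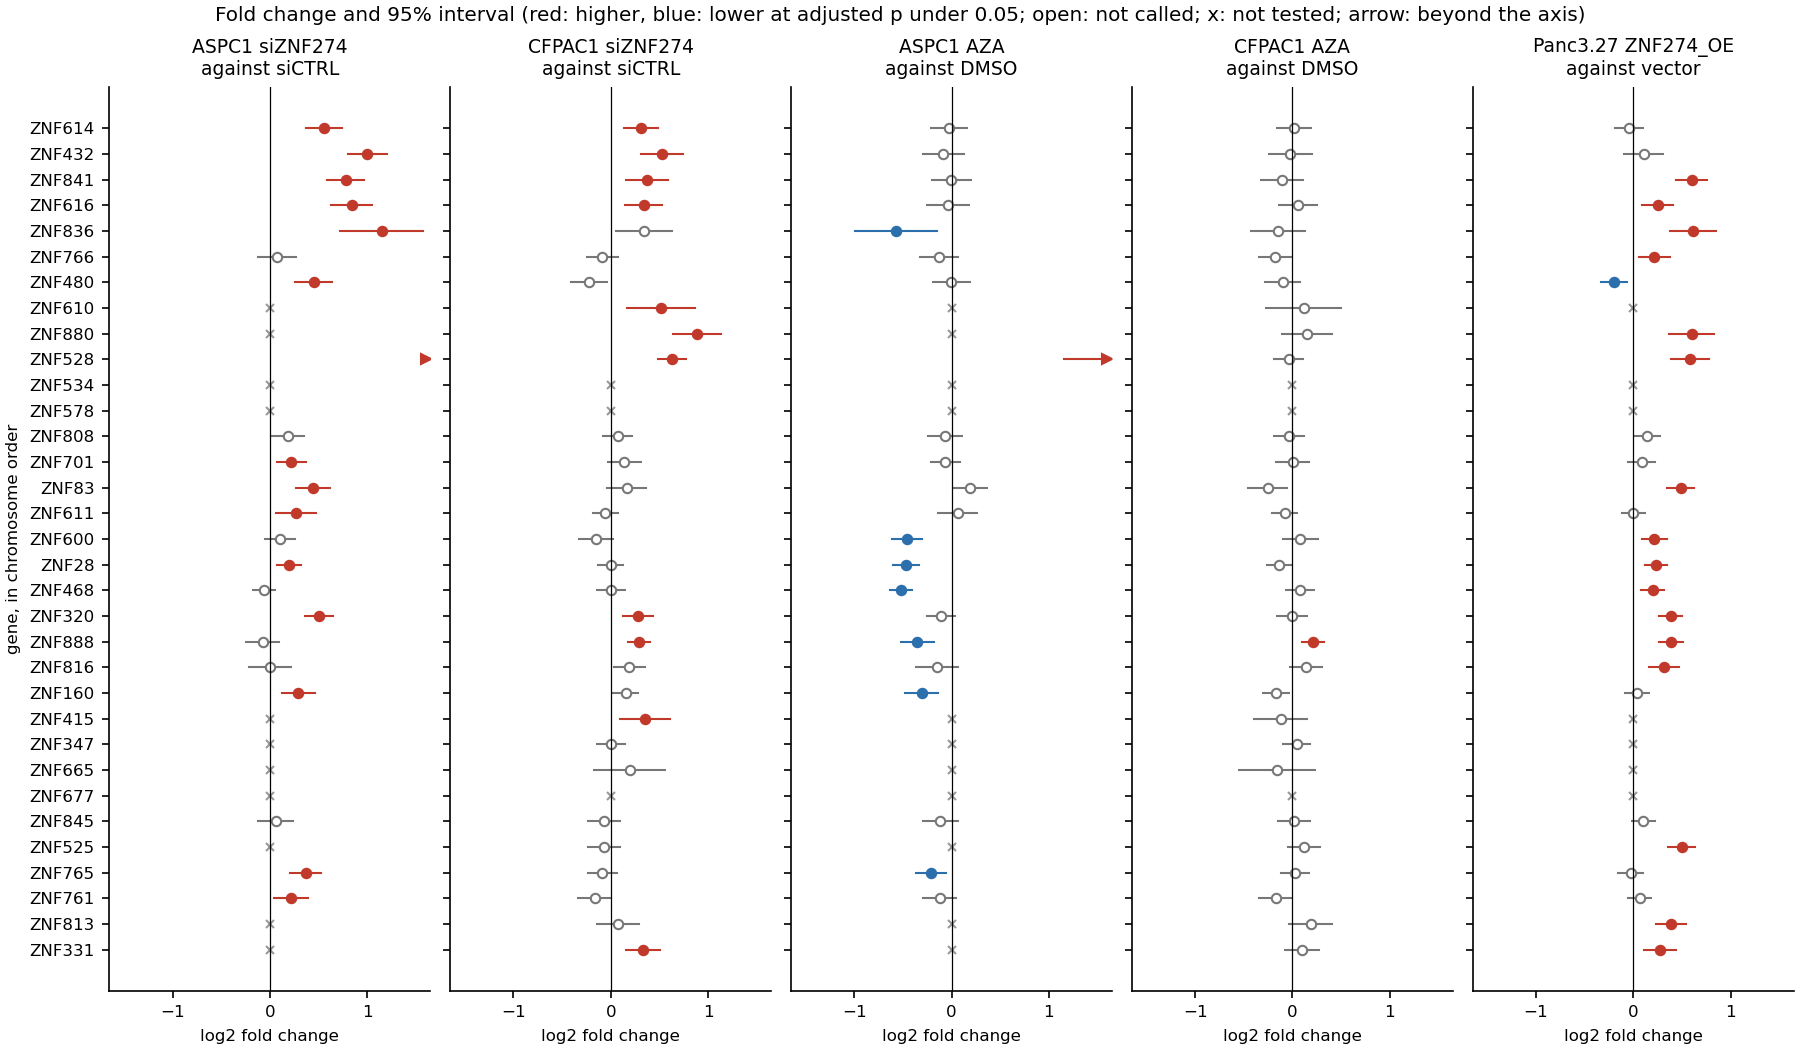
Log2 fold change (point) and its 95% interval (line) of each gene in chromosome order, for siZNF274 against siCTRL in ASPC1 and CFPAC1, AZA against DMSO in both lines, and ZNF274_OE against vector in Panc3.27. Filled red points were called higher and filled blue ones lower, open points were not called, crosses were not tested, and arrows lie beyond the axis (ZNF528 in ASPC1, which passed the filter only through groups where it was high). Filled points lie to the right in both siZNF274 panels and, but for ZNF480, in the overexpression panel, and mostly to the left in the ASPC1 AZA panel.

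In CFPAC1, where 30 members were tested, 11 rose and 0 fell in the libraries labelled siZNF274, against 11.6% higher and 13.2% lower of all 18103 tested genes. The median log2 fold change of the members was 0.16, beside -0.01 over all tested genes. At an unadjusted p under 0.05 edgeR gave 1 lower member, and DESeq2 gave 0 after adjustment. ZNF880, near-silent in ASPC1 and so not tested there, changed most, with 8.29, 8.503 and 7.92 CPM in siZNF274, against 4.80, 4.24 and 4.32 CPM in siCTRL (log2 fold change 0.89 ± 0.12 SE, edgeR adjusted p = 4.29e-05). ZNF528 had 25.7, 25.2 and 25.8 CPM in siZNF274, against 16.2, 16.9 and 16.5 CPM in siCTRL (log2 fold change 0.63 ± 0.07 SE, edgeR adjusted p = 7.68e-06). For both genes, neighbours under the widest peak of ASPC1, the groups were far apart relative to their spread. ZNF432 had 13.2, 12.7 and 11.9 CPM in siZNF274, against 9.88, 7.84 and 8.55 CPM in siCTRL (log2 fold change 0.53 ± 0.10 SE, edgeR adjusted p = 0.00139). ZNF610 had 3.83, 3.38 and 4.03 CPM in siZNF274, against 2.56, 2.22 and 3.07 CPM in siCTRL (log2 fold change 0.52 ± 0.16 SE, edgeR adjusted p = 0.029). The other 7 were ZNF841 (0.37), ZNF415 (0.35), ZNF616 (0.34), ZNF331 (0.33), ZNF614 (0.31), ZNF888 (0.29) and ZNF320 (0.28), given as log2 fold changes. All 11 had libraries without overlap. The epithelial markers summed to 7529 to 7811 CPM in CFPAC1 siZNF274, against 8387 to 9474 CPM in siCTRL, the leukocyte markers to 2.71 to 4.43 CPM, against 1.72 to 2.44 CPM, and the acinar markers to 0.381 to 0.576 CPM, against 0.0762 to 0.291 CPM. Their part was not tested.

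In CFPAC1, 6 of 30 tested members were higher and 1 lower in siCTRL than in DMSO, against 7.3% higher and 8.22% lower of all tested genes. These counts were 2 and 0 with only these 2 groups fitted, and leaving out 1 library gave 2 to 6 higher and 0 to 1 lower. Whether this differs from ASPC1 was not tested. ZNF888 had 77.5, 76.4 and 85.2 CPM in siCTRL, against 61.8, 63.8 and 59.4 CPM in DMSO (log2 fold change 0.37 ± 0.05 SE, edgeR adjusted p = 0.000163). ZNF816 had 22.4, 23.9 and 21.3 CPM in siCTRL, against 18.97, 16.8 and 15.6 CPM in DMSO (log2 fold change 0.40 ± 0.08 SE, edgeR adjusted p = 0.00189). ZNF610 (0.58), ZNF600 (0.30), ZNF320 (0.27) and ZNF28 (0.19) were the other higher genes by log2 fold change. The siCTRL libraries of these 6 genes lay above all DMSO libraries. ZNF836 was again lower, with 3.25, 2.37 and 3.04 CPM in siCTRL, against 4.04, 4.24 and 3.87 CPM in DMSO (log2 fold change -0.49 ± 0.13 SE, edgeR adjusted p = 0.0195).

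The size of the change with the siZNF274 label differed between the lines for 9 of 30 tested members in a joint fit of 24 libraries, with 8 differences above 0 and 1 below, against 7.37% and 9.28% of all tested genes. Of these, ZNF528 and ZNF525 had few counts in ASPC1 and passed the filter through CFPAC1, and over the 21 members expressed in both lines 6 differences were above 0 and 1 below. ZNF480 was one of them: its log2 change in ASPC1 minus that in CFPAC1 was 0.66 ± 0.13 SE (edgeR adjusted p = 0.000505), with 25.4, 23.9 and 23.4 CPM in CFPAC1 siZNF274, against 32.8, 27.8 and 24.2 CPM in CFPAC1 siCTRL. ZNF765 gave 0.44 ± 0.10 SE (edgeR adjusted p = 0.00214) and ZNF616 gave 0.49 ± 0.14 SE (edgeR adjusted p = 0.0139). ZNF888 was the gene with the larger change in CFPAC1, with a difference of -0.38 ± 0.09 SE (edgeR adjusted p = 0.00339). Without replicate 2 of ASPC1 siCTRL the number of members called was 4.

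Overexpression of ZNF274 in Panc3.27 also went with higher levels of most tested members. Of 26 tested members, 16 rose and 1 fell in ZNF274_OE, against 19.8% higher and 17.1% lower (36.9% in either direction) of all 17350 tested genes, and the median log2 fold change was 0.23, beside 0.01 over all tested genes. ZNF841 had 22.1, 20.04 and 23.6 CPM in ZNF274_OE, against 14.5, 14.8 and 14.0 CPM in vector (log2 fold change 0.60 ± 0.07 SE, edgeR adjusted p = 2.46e-05). ZNF836 had 8.15, 6.57 and 7.40 CPM in ZNF274_OE, against 5.02, 4.84 and 4.57 CPM in vector (log2 fold change 0.62 ± 0.11 SE, edgeR adjusted p = 0.000578). Every ZNF274_OE library exceeded every vector library for both. ZNF880 had 6.16, 7.30 and 6.41 CPM in ZNF274_OE, against 4.30, 4.45 and 4.35 CPM in vector (log2 fold change 0.60 ± 0.11 SE, edgeR adjusted p = 0.000643). ZNF528 had 16.2, 17.3 and 15.4 CPM in ZNF274_OE, against 12.3, 10.9 and 9.57 CPM in vector (log2 fold change 0.58 ± 0.09 SE, edgeR adjusted p = 0.000229). ZNF880 and ZNF528 are next to each other on the chromosome, and the groups of neither overlapped. ZNF525 had 23.7, 23.8 and 24.9 CPM in ZNF274_OE, against 16.7, 16.3 and 18.2 CPM in vector (log2 fold change 0.50 ± 0.07 SE, edgeR adjusted p = 5.17e-05). ZNF83 had 28.5, 25.7 and 29.0 CPM in ZNF274_OE, against 19.8, 20.3 and 19.2 CPM in vector (log2 fold change 0.49 ± 0.06 SE, edgeR adjusted p = 5.47e-05).

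The remaining 10 higher genes in Panc3.27 had smaller changes. By log2 fold change they were ZNF813 (0.39), ZNF888 (0.38), ZNF320 (0.38), ZNF816 (0.32), ZNF331 (0.27), ZNF616 (0.25), ZNF28 (0.23), ZNF766 (0.22), ZNF600 (0.21) and ZNF468 (0.20). ZNF766 was the only one of the 17 called members whose groups overlapped, with 29.99, 27.0 and 24.8 CPM in ZNF274_OE, against 23.1, 25.1 and 22.1 CPM in vector. ZNF480 was the 1 member that fell, with 22.5, 21.7 and 22.8 CPM in ZNF274_OE, against 27.1, 25.2 and 24.4 CPM in vector (log2 fold change -0.19 ± 0.06 SE, edgeR adjusted p = 0.0246), a call that was lost without replicate 2 of ZNF274_OE. ZNF614 and ZNF432, both higher with the siZNF274 label in both lines, were not called here, with ZNF614 at 30.4, 30.1 and 29.2 CPM in ZNF274_OE, against 34.0, 29.9 and 28.6 CPM in vector. The 3 endothelial markers, here mainly VWF, summed to 54.4 to 57.8 CPM in ZNF274_OE, against 30.2 to 30.7 CPM in vector. The epithelial markers summed to 4186 to 4252 CPM in ZNF274_OE, against 4673 to 4850 CPM in vector. The fibroblast list summed to 52.9 to 55.6 CPM in ZNF274_OE, against 71.9 to 73.9 CPM in vector, and the leukocyte markers to 2.32 to 2.83 CPM, against 2.97 to 3.51 CPM. The part of these markers was not tested. The 7 genes near 0 in the vector libraries stayed near 0: ZNF610 had 1, 1 and 2 counts in ZNF274_OE, against 0, 0 and 0 counts in vector.

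**Figure D3:**
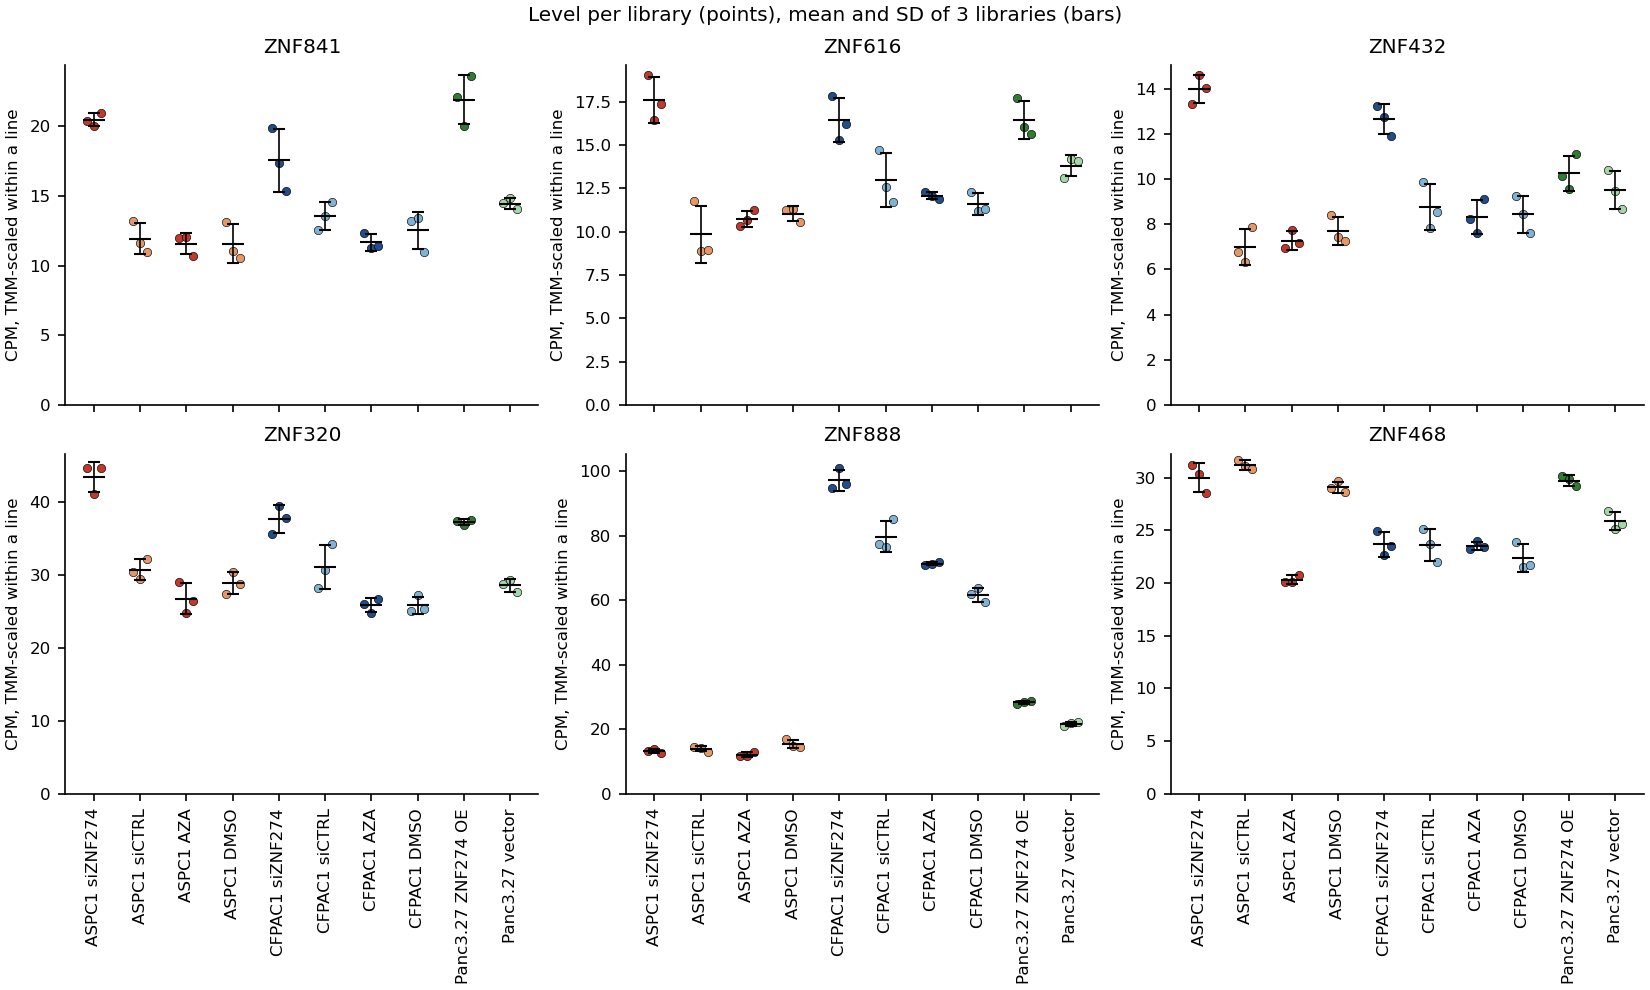
CPM (scaled within a line) of ZNF841, ZNF616, ZNF432, ZNF320, ZNF888 and ZNF468 in each of the 30 libraries (points), with the mean and SD of 3 libraries as a bar, siZNF274 to the left of siCTRL, AZA to the left of DMSO and ZNF274_OE to the left of vector. ZNF841, ZNF616 and ZNF320 are higher in siZNF274 and in ZNF274_OE than in their controls, and ZNF468 is lowest in ASPC1 AZA, at 20.1 to 20.8 CPM.

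Of the 22 members tested in all 5 comparisons, which share no libraries with each other, 5 were called higher in at least 3. Among these, ZNF528 was called in 4, but the 2 in ASPC1 rest on its passing the filter where it was high. Leaving ZNF528 out, 4 of the 21 members expressed in ASPC1 were called higher in 3 each, against 8.03% of all genes tested in all 5. They were ZNF841, ZNF616, ZNF320 and ZNF888, and ZNF888 was also lower in ASPC1 AZA. ZNF320 had 44.6, 41.0 and 44.7 CPM in ASPC1 siZNF274, against 30.4, 29.4 and 32.2 CPM in ASPC1 siCTRL. It had 35.6, 39.4 and 37.8 CPM in CFPAC1 siZNF274, against 28.2, 30.7 and 34.2 CPM in CFPAC1 siCTRL. In Panc3.27 it had 37.4, 36.8 and 37.5 CPM in ZNF274_OE, against 28.8, 29.2 and 27.6 CPM in vector. The log2 fold changes were 0.50, 0.28 and 0.38, and none of the 3 pairs of groups overlapped. ZNF808 and ZNF845 were tested in all 5 and called in 0, by edgeR adjusted p; ZNF808 had log2 fold changes from -0.07 to 0.18.

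AZA gave a different picture in ASPC1. Of 22 tested members, 7 fell and 1 rose (0 without ZNF528), against 18.6% lower and 17.2% higher (35.8% in either direction) of all tested genes, with a median log2 fold change of -0.11, beside -0.00 over all tested genes. Among those that fell, ZNF600, ZNF28, ZNF468 and ZNF888 lie close together in the middle of the cluster. ZNF320, which lies between ZNF468 and ZNF888, was not called. It had 29.0, 24.7 and 26.4 CPM in AZA, against 27.4, 30.3 and 28.8 CPM in DMSO, groups that overlapped. ZNF468 had 20.1, 20.1 and 20.8 CPM in AZA, against 29.0, 29.7 and 28.6 CPM in DMSO (log2 fold change -0.52 ± 0.05 SE, edgeR adjusted p = 1.8e-06). ZNF28 had 17.5, 17.9 and 17.4 CPM in AZA, against 25.9, 23.4 and 23.6 CPM in DMSO (log2 fold change -0.47 ± 0.06 SE, edgeR adjusted p = 2.3e-05). ZNF28 and ZNF468 overlap in the annotation, so reads of the shared bases could be assigned to either. ZNF600 had 11.9, 12.5 and 12.1 CPM in AZA, against 16.6, 16.98 and 16.6 CPM in DMSO (log2 fold change -0.46 ± 0.07 SE, edgeR adjusted p = 0.000147). ZNF836 had 1.92, 1.48 and 1.497 CPM in AZA, against 2.53, 2.28 and 2.45 CPM in DMSO (log2 fold change -0.57 ± 0.20 SE, edgeR adjusted p = 0.0335). The AZA libraries were below the DMSO libraries for ZNF468, ZNF28, ZNF600 and ZNF836. The call for ZNF836 was lost without AZA replicate 2 or 3 or any 1 DMSO library (edgeR adjusted p up to 0.113). The epithelial markers summed to 9146 to 9434 CPM in AZA, against 13432 to 15046 CPM in DMSO, the endothelial markers to 0.723 to 1.40 CPM, against 0.400 to 0.563 CPM, and the leukocyte markers to 1.40 to 1.74 CPM, against 0.793 to 1.38 CPM. Their part was not tested. ZNF888 (-0.35), ZNF160 (-0.31; its product has been described as a repressor of TLR4) and ZNF765 (-0.21) were the other 3 lower genes by log2 fold change. ZNF274 itself, not a member, had 20.1, 18.9 and 18.6 CPM in AZA, against 14.5, 12.3 and 14.3 CPM in DMSO (log2 fold change 0.49 ± 0.11 SE, edgeR adjusted p = 0.00317). This was not particular to AZA in ASPC1. In CFPAC1, ZNF274 had 30.8 to 32.7 CPM in AZA, against 28.1 to 29.0 CPM in DMSO. The siCTRL libraries (15.8 to 20.6 CPM in ASPC1, 33.5 to 35.7 CPM in CFPAC1) also lay above every DMSO library of their line. So did the siZNF274 libraries (16.6 to 22.4 CPM and 31.5 to 34.4 CPM).

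The gene called higher with AZA in ASPC1 was ZNF528, with 13, 20 and 9 counts in AZA, against 5, 1 and 2 counts in DMSO, a ratio of 5.25 with an exact 95% interval of 2.44 to 12.9 for counting error. With only these 2 groups fitted it was removed by the filter, so no test is given for it here. It remained at 0.372, 0.520 and 0.232 CPM in AZA. A few other near-silent genes, too low to be tested, showed some counts in AZA libraries, at most 13 in a library. ZNF525 had 5, 13 and 6 counts in AZA, against 2, 2 and 0 counts in DMSO, a ratio of 6 with an exact 95% interval of 2.06 to 23.8 for counting error. ZNF813 had 1, 5 and 7 counts in AZA, against 0, 1 and 0 counts in DMSO. ZNF331 had 2, 3 and 3 counts in AZA, against 0, 0 and 0 counts in DMSO, and ZNF534 had 3, 2 and 3 counts in AZA, against 0, 0 and 0 counts in DMSO, both at least 2.67-fold higher when a floor of 3 counts over the group stands in for 0. For ZNF525, ZNF331 and ZNF534 all 3 AZA libraries were above every DMSO library, but at no more than 13 counts. Summed over the 12 genes, AZA libraries held 105 counts, against 18 counts in DMSO, and siZNF274 libraries held 87 counts, against 11 counts in siCTRL. The 12 genes were chosen for low levels in these same DMSO libraries. That choice favours a rise from DMSO, in a gene or in the sum, so these values are no test. In AZA, 42 of the 105 counts were from ZNF528 and 24 from ZNF525. In siZNF274, 74 of the 87 counts were from ZNF528, while ZNF610, ZNF880, ZNF534, ZNF415, ZNF347, ZNF677 and ZNF331 had 0 counts there. ZNF610, ZNF578 and ZNF415 had 0 counts in AZA.

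In CFPAC1 the cluster hardly moved with AZA. Of 30 tested members 1 rose and 0 fell, against 12.2% higher and 13.5% lower of all tested genes, and the median log2 fold change was 0.00, beside 0.01 over all. With upper quartile scaling the split of all called genes was 2940 higher and 1914 lower, against 2207 and 2445 with TMM. At an unadjusted p under 0.05 edgeR gave 4 lower members, and DESeq2 called 1 after adjustment. ZNF888 was the member that rose, with 70.8, 71.3 and 71.9 CPM in AZA, against 61.8, 63.8 and 59.4 CPM in DMSO (log2 fold change 0.21 ± 0.05 SE, edgeR adjusted p = 0.00899), the opposite direction to ASPC1. The difference between the lines was called for 9 of 30 tested members, with 5 differences above 0 and 4 below, against 8.65% and 8.66% of all tested genes. Of the 5 above 0, ZNF528, ZNF525, ZNF813 and ZNF331 had few counts in ASPC1 and passed the filter through CFPAC1, and over the 21 members expressed in both lines 1 difference was above 0 (ZNF83) and 4 below. For ZNF888 the log2 change in ASPC1 minus that in CFPAC1 was -0.57 ± 0.09 SE (edgeR adjusted p = 2.72e-05), for ZNF468 it was -0.60 ± 0.09 SE (edgeR adjusted p = 7.44e-06) and for ZNF600 it was -0.55 ± 0.11 SE (edgeR adjusted p = 0.000686). ZNF468 had 23.2, 23.95 and 23.4 CPM in CFPAC1 AZA, against 23.9, 21.5 and 21.7 CPM in CFPAC1 DMSO, groups that overlapped. The endothelial markers summed to 5.10 to 5.22 CPM in CFPAC1 AZA, against 1.17 to 1.39 CPM in DMSO, the fibroblast list to 94.0 to 99.3 CPM, against 147 to 158 CPM, and the leukocyte markers to 4.69 to 5.31 CPM, against 1.76 to 2.09 CPM. The acinar markers summed to 0.256 to 0.436 CPM in CFPAC1 AZA, against 0.106 to 0.205 CPM in DMSO, and the epithelial markers to 8211 to 8512 CPM, against 8834 to 9245 CPM, and the part of these markers was not tested.

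The members were also divided by whether they lie over a Down peak. In ASPC1 siZNF274 against siCTRL, 8 of 12 tested members over a Down peak were higher, with a median log2 fold change of 0.25, and 7 of 10 tested members over none were higher (1 of them ZNF528), with a median of 0.33. In CFPAC1, 5 of 12 over a Down peak of ASPC1 were higher (median 0.15) and 6 of 18 over none (0.17). In Panc3.27, 7 of 12 over a Down peak were higher and 9 of 14 over none. The hairpin cells of the peak list gave no RNA-seq library used here, so cover and RNA were not measured in the same cells.

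The rest of the series sets the scale of these counts. In ASPC1 siZNF274 against siCTRL, 72 of 146 tested zinc finger genes elsewhere on chromosome 19 were higher and 6 lower (median log2 fold change 0.31), as were 57 higher and 30 lower of 220 on other chromosomes (0.08). The 18 tested non-zinc-finger neighbours in the window had 6 higher and 3 lower (0.23). In CFPAC1 siZNF274 against siCTRL, 49 of 193 zinc finger genes elsewhere on chromosome 19 were higher and 5 lower (0.18), beside a median of 0.16 over the members. On other chromosomes 27 of 240 were higher and 24 lower (0.01), and of 21 tested neighbours 1 was higher and 3 lower (-0.09). In Panc3.27, 49 of 177 zinc finger genes elsewhere on chromosome 19 were higher and 12 lower (0.09), and 34 of 232 on other chromosomes were higher and 42 lower (-0.04). There the 22 tested neighbours had 9 higher and 4 lower (0.17), beside a median of 0.23 over the members. In ASPC1 AZA against DMSO, 11 of 146 elsewhere on chromosome 19 were higher and 12 lower (0.02), beside the 1 higher and 7 lower of 22 members. Differences between these sets were not tested. The gene just before the window, ZNF615, was also higher with the siZNF274 label in ASPC1 (log2 fold change 0.96 ± 0.14 SE) and CFPAC1 (0.49 ± 0.09 SE) and in Panc3.27 ZNF274_OE (0.30 ± 0.10 SE), and the one just after it, ZNF628, was not called in any of the 5 comparisons. Both were read with no test of the window's edges.

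Genes of the KRAB, H3K9me3 and DNA methylation machinery, a list of 21 all tested in each line, were called in both directions. DNMT1, the maintenance DNA methyltransferase, was lower with the siZNF274 label in ASPC1 (log2 fold change -0.34 ± 0.05 SE) and CFPAC1 (-0.29 ± 0.05 SE) and in Panc3.27 ZNF274_OE (-0.15 ± 0.04 SE), and higher in ASPC1 AZA (0.27 ± 0.05 SE). UHRF1, which brings DNMT1 to replicated DNA, was lower in CFPAC1 siZNF274 (-0.29 ± 0.07 SE) and Panc3.27 ZNF274_OE (-0.42 ± 0.05 SE), and higher in ASPC1 AZA (0.70 ± 0.06 SE). In ASPC1 siZNF274, 3 of 21 were higher (CHD4, DNMT3A, CBX3) and 4 lower (DNMT1, CBX5, ATF7IP, PPHLN1), against 21.5% and 24.2% of all tested genes. In ASPC1 siCTRL against DMSO, 1 was higher (CBX5, 0.31 ± 0.04 SE) and 7 lower, among them CBX3 (-0.14 ± 0.05 SE), against 15.9% and 14.2%. CBX5 averaged 423 CPM in siZNF274, 526 CPM in siCTRL and 425 CPM in DMSO, and CBX3 averaged 277, 250 and 277 CPM. For these 2 genes siZNF274 was thus apart from siCTRL but close to DMSO. In CFPAC1 siZNF274 0 were higher and 5 lower (DNMT1, DNMT3B, UHRF1, TRIM28, MORC2), against 11.6% and 13.2%. In CFPAC1 siCTRL against DMSO 0 were higher and 2 lower (CBX5, UHRF1), against 7.3% and 8.22%. In Panc3.27 ZNF274_OE, SETDB1 was higher (0.24 ± 0.05 SE) and 11 were lower, among them SUV39H2 (-0.34 ± 0.06 SE), PPHLN1 (-0.32 ± 0.05 SE) and TRIM28 (-0.24 ± 0.05 SE), against 19.8% higher and 17.1% lower of all tested genes. In ASPC1 AZA 5 were higher (UHRF1, CHD4, DNMT1, TRIM28, CBX5) and 0 lower, against 17.2% and 18.6%. In CFPAC1 AZA 2 were higher (EHMT2, SUV39H2) and 7 lower (CBX1, ATF7IP, DAXX, EHMT1, CBX5, SETDB1, ATRX), against 12.2% and 13.5%. Their part in the changes of the cluster was not tested.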

How the data were processed

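The authors deposited raw whole-number counts for RNA-seq, 1 value per gene and library. Per the submitters' processing notes the tools were STAR 2.7.10b and FastQC for RNA-seq, and Bowtie2, MACS2, HOMER and featureCounts among those for CUT&RUN. The sources used here name no RNA-seq counting program, strand setting or annotation release, so overlapping genes and close paralogs of the cluster carry that uncertainty. The H3K9me3 list was used for peak positions, group labels and the authors' call, and its deposited score, the same for all peaks, was not used. The sources do not say whether peaks were called per sample.

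Each line was fitted alone with edgeR 4.0.16 in R 4.3.3 (12, 12 and 6 libraries), and both 4-group lines jointly (24 libraries) for differences between lines. Genes passed filterByExpr, were scaled by TMM and tested by the quasi-likelihood test, with Benjamini-Hochberg adjustment at 0.05 over all tested genes. Cover is the share of a gene body under merged peaks. Replicates are called biological in the design text, but no label names separate cultures, so p-values cover the spread of these libraries, which may be technical. No 2 libraries of a group were identical. Ratios from raw counts carry exact intervals at 95% and a floor of 3 counts, for counting error only. Genes named are, per comparison, up to 4 called in each direction with the largest change and no overlap, those called alike in 3 or more comparisons, up to 10 called in Panc3.27, the 3 of most counts per line, those of highest cover and the called machinery genes. Uncalled members named beside them (ZNF808, ZNF845 and ZNF468, ZNF614 or ZNF480 where not called) were chosen after their values were seen. The members and lists were chosen with earlier results of these data known. The fits were tested on simulated data, where small changes were recovered less often in Panc3.27 and in the difference between lines than elsewhere, and the pass criterion of that test was relaxed for small changes after this was seen. Alternatives were other scalings, no filter, DESeq2 1.42.0, only the groups compared, a replicate block, leaving out each library and, chosen after the data were seen, counting only members of at least 1 CPM in the DMSO or vector libraries of the lines compared.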

Additional observations from a re-analysis of the deposited data

Results flagged for a closer look

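These results stand out because the change of a member under the same treatment differed between ASPC1 and CFPAC1 in a test of the difference itself (edgeR, adjusted over all tested genes). Values are the log2 change in ASPC1 minus that in CFPAC1, and no cause was tested.

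For siZNF274 against siCTRL the differences were 0.79 for ZNF836, 0.66 for ZNF480, 0.49 for ZNF616, 0.45 for ZNF432, 0.44 for ZNF765, 0.36 for ZNF761 and -0.38 for ZNF888. Of 17 alternative runs, the call was lost in 6 for ZNF761, 5 for ZNF836, 5 for ZNF432 and 1 for ZNF616. ZNF836, ZNF480 and ZNF765 were also lower in ASPC1 siCTRL than in DMSO, and their differences share those siCTRL libraries. In ASPC1 the siZNF274 libraries of ZNF480 and ZNF765 overlapped DMSO (ZNF765 from 17.33 CPM, against up to 17.34 CPM). ZNF528 and ZNF525 were also called, but they passed the filter on low counts through CFPAC1 and had few counts in ASPC1, so no value is given for them. ZNF480 had a fall in CFPAC1 that was not called and a called rise in ASPC1.

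For AZA against DMSO the differences were 0.44 for ZNF83, -0.60 for ZNF468, -0.57 for ZNF888, -0.55 for ZNF600 and -0.34 for ZNF28. Of 17 alternative runs, the call was lost in 2 for ZNF83 and 1 for ZNF28. ZNF528, ZNF525, ZNF813 and ZNF331 were also called, with at most 20 counts in an ASPC1 library of AZA or DMSO, and no value is given for them on the same ground. ZNF888 fell in ASPC1 and rose in CFPAC1, both called within their line.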

How the results depend on the processing

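No member's call changed direction under any alternative run, and of 103 calls of members 71 held under every one in which the gene was tested. The 103 include calls of genes near-silent in ASPC1, such as ZNF528, that passed the filter only through groups where they were high. A run in which the filter removed a gene was not counted as a loss, so 71 of 103 is no rate for the expressed members. With only the 2 groups compared, members called numbered 0 higher in ASPC1 AZA (ZNF528 was then removed by the filter), 2 lower in ASPC1 siCTRL against DMSO, 1 lower in CFPAC1 AZA, and 2 higher and 0 lower in CFPAC1 siCTRL against DMSO. Without the filter on low counts they were 2 higher in ASPC1 AZA and 1 lower in CFPAC1 siZNF274 and in CFPAC1 AZA, and DESeq2 gave 1 lower in CFPAC1 AZA. The replicate numbers were not shown to pair libraries: in no comparison were all 3 correlations of same-numbered deviations above 0.1, although each library correlated best with its own number in 6 of 6 cases for ASPC1 siZNF274 with siCTRL and for ASPC1 siCTRL with DMSO. With replicate block they were 2 higher in ASPC1 AZA and 1 lower in CFPAC1 siZNF274, and the other counts stayed within 1.5 times.

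Leaving out 1 library gave these ranges of members called: ASPC1 AZA 1 to 2 higher (2 without AZA replicate 2), 5 to 7 lower; ASPC1 siZNF274 12 to 15 higher; CFPAC1 siZNF274 8 to 12 higher, 0 to 1 lower (1 without siCTRL replicate 3); CFPAC1 AZA 0 to 1 lower (1 without AZA replicate 3 or DMSO replicate 3). ASPC1 siCTRL against DMSO gave 2 to 5 lower, with 2 without siCTRL replicate 2, siCTRL replicate 3 or DMSO replicate 1. CFPAC1 siCTRL against DMSO gave 2 to 6 higher and 0 to 1 lower, with 2 or 3 higher without siCTRL replicate 2, siCTRL replicate 3, DMSO replicate 1 or DMSO replicate 3, and 0 lower without siCTRL replicate 2 or DMSO replicate 2. Panc3.27 gave 12 to 15 higher and 0 to 1 lower. Between lines the ranges were 4 to 9 for siZNF274, 7 to 10 for AZA and 22 to 24 for DMSO.

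Other scalings moved the median of all genes between ASPC1 DMSO and CFPAC1 DMSO to -0.12 and -0.16, beside -0.06 with TMM. At 25% and 75% cover, 31 and 22 members passed. Counted over members above 1 CPM in DMSO only, a choice made after the data were seen, 0 were called higher in ASPC1 AZA, 5 for AZA and 13 for DMSO between lines. Counts at or near 0 kept 11 of the 12 near-silent genes from being tested within ASPC1. The cause of these changes was not tested.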
